A study of Schmidtea mediterranea with 6 samples.

Results

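Hox4b (transcript SmedASXL_008878) and Hox4a (SmedASXL_007160) are the 2 HOX genes of the planarian Schmidtea mediterranea that carry a Hox4 name. For Hox4b the name rests on sequence matches, since its place in gene trees of the study was not settled. They were chosen by name, through the identifiers that the study's sequence table gives for them, and both had a row among the 24578 transcripts tested. Adult asexual worms of the clonal CIW4 strain, wild type and untreated apart from the cuts, were starved for 1 week and amputated into 6 zones along the anterior–posterior (A–P) axis. Zone 1 lay in front of a cut behind the photoreceptors, zone 2 reached to the back of the brain, zone 3 to the front of the pharynx and zone 4 to its back, zone 5 covered the anterior part of the tail, and zone 6 was the tail tip. Accounts of the animals used differ, with 5 in the labels of the samples, 10 in that of the series and 3 collections in the study's methods, where they were mixed into 1 library of polyA-selected RNA per zone. Each zone was one group with 1 library, so there was no replicate and no spread between animals for any value.

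HOX genes encode transcription factors that bind DNA through a homeodomain, and in many animals they give regions along the body axis their identity. Hox4 genes, called Deformed (dfd) in insects, belong to the anterior class, and in flies and vertebrates they act in the posterior head and the neck region. Planarians rebuild their whole body plan from small fragments, so that positional information along the axis has to be kept up in the adult.

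The values deposited by the authors are scores, with 1 score per transcript and zone. A score is −log10 of the unadjusted p-value of the edgeR exact test of that zone against the other 5, with a plus sign for a transcript that was higher in that zone and a minus sign for one that was lower. A score of 1.30 in size marks an unadjusted p-value of 0.05. Scores are not expression levels, and they grow with the size of a difference as well as with the abundance of the transcript. Levels in reads were not analysed here. The labels give a depth of over 52000000 reads per zone, and no counting error could be attached to a score. Calls below use the Benjamini-Hochberg adjusted p over all 24578 transcripts within each comparison, at 0.05. Since each zone was compared with all others, the 6 scores of a gene share their libraries. In pieces of whole tissue, fewer cells that express a gene and less RNA per cell cannot be told apart.

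The scores of Hox4b were graded from head to tail. Hox4b was higher in zone 6 and lower in zones 1, 2 and 3, so that 4 of its 6 comparisons were called. Its deposited scores were −12.60, −8.34, −4.02, −0.16, 2.23 and 10.28 from zone 1 to zone 6. They rose in all 5 steps, with the strongest negative value at the head tip and the strongest positive value at the tail tip.

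In the tail tip, the adjusted p of Hox4b was 5.46e-09 (edgeR exact test, Benjamini-Hochberg), and 0.321% of all transcripts were called higher there. Only 8 transcripts had a higher zone 6 score, which placed Hox4b at rank 9. In the anterior part of the tail (zone 5) the score of 2.23 ranked 32 of 24578, with an unadjusted p of 0.00594 from the edgeR exact test. This zone 5 value passed the authors' threshold, which 0.325% of all transcripts passed as higher, but not the adjusted one (edgeR exact test, Benjamini-Hochberg, adjusted p = 0.152). The lowest zone 5 score past the adjusted threshold was 2.90. The authors' zone code for Hox4b was 6.5, which lists zone 6 first and zone 5 after it.

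Towards the head, Hox4b was called lower in 3 neighbouring zones. The Benjamini-Hochberg adjusted p of the edgeR exact test was 2.19e-11 in zone 1, 3.05e-07 in zone 2 and 0.00403 in zone 3. Counted from the lowest score, Hox4b ranked 183 in zone 1, 193 in zone 2 and 459 in zone 3. Of all transcripts, 6.06% were called lower in zone 1, 1.3% in zone 2 and 2.66% in zone 3. In zone 4, the pharynx region, Hox4b was not called (score −0.16, unadjusted p = 0.688 in the edgeR exact test). The sign of the Hox4b score changed between zones 4 and 5. A sign only tells whether a zone lay above or below the other 5, and neither zone was called after adjustment. The change of sign therefore cannot show whether there is a boundary in the tissue.

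Hox4a was not called in any zone. Its deposited scores were −0.95, −0.03, −0.23, −0.19, 0.15 and 1.59 from zone 1 to zone 6. As for Hox4b, the lowest score stood at the head tip and the highest at the tail tip, while the 4 zones in between lay close to 0. The zone 6 score of 1.59 corresponded to an unadjusted p of 0.026 in the edgeR exact test. It gave Hox4a the authors' zone code 6, at a threshold that 0.915% of all transcripts passed as higher in zone 6. After Benjamini-Hochberg adjustment of the edgeR exact test the p was 0.421, and the lowest zone 6 score past the adjusted threshold was 2.72. In zone 1 the unadjusted p was 0.111, and in zones 2 to 5 it lay between 0.593 (zone 3) and 0.925 (zone 2). A score near 0 in 1 library per zone does not show that Hox4a was evenly expressed.

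**Figure D1:**
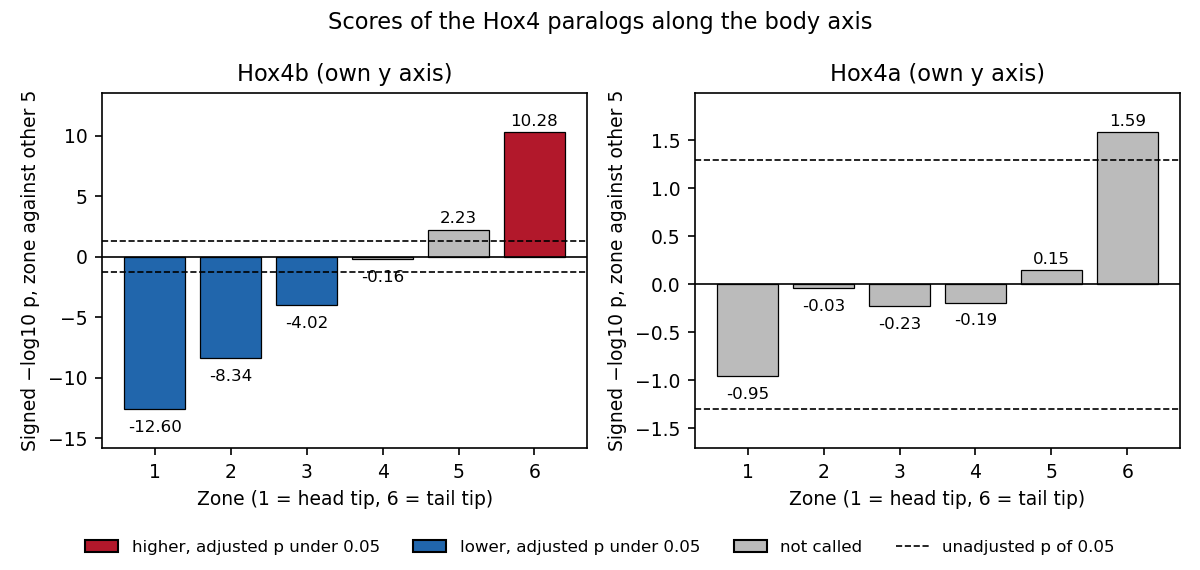
Bars give the deposited score (signed −log10 p of the zone against the other 5) of Hox4b at the left and Hox4a at the right, by zone from head tip (1) to tail tip (6), with a y axis for each gene, colours for the Benjamini-Hochberg call and dashed lines at an unadjusted p of 0.05. Hox4b runs from −12.60 in zone 1 to 10.28 in zone 6, whereas Hox4a passes the dashed line with 1.59 in zone 6 and is called nowhere.

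Side by side, the paralogs had scores of the same sign in all 6 zones, negative from zone 1 to zone 4 and positive in zones 5 and 6. This order of signs was found in 280 transcripts, 1.14% of all. Hox4a was called in no zone, and its unadjusted p in zones 2 to 5 was at least 0.593 (edgeR exact test). The sign of Hox4b in zone 4 rests on an unadjusted p of 0.688 in the same test. Agreement in sign between such scores does not show a shared pattern. The scores differed most at the ends of the body. Hox4b minus Hox4a was −11.65 in zone 1 and 8.69 in zone 6, but 0.03 in zone 4. In zones 2 and 3 the difference was −8.31 and −3.80, and in zone 5 it was 2.07. These are differences between scores and not between levels, so that they do not say which paralog had more RNA, and with 1 library per zone they could not be tested.

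The steps from zone to zone were also distributed differently. For Hox4b, the step between zones 5 and 6 took up 35.2% of the rise from zone 1 to zone 6, and the other steps between 10.4% (zones 4 to 5) and 18.9% (zones 2 to 3). For Hox4a, the step between zones 5 and 6 took up 56.4% and the step between zones 1 and 2 36.2%. The score of Hox4a fell by 0.19 between zones 2 and 3. Since Hox4a was called in no zone, its steps lie within uncalled scores and establish neither a rise nor a break. Between scores and zone numbers, Spearman's rho was 1 for Hox4b and 0.83 for Hox4a over 6 zones that share their libraries. Without zones 1 and 6 it stayed at 1 for Hox4b and was 0.40 for Hox4a.

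An unbroken rise was uncommon, and it was mostly small. The scores of 261 transcripts (1.06%) rose in all 5 steps, and 213 of these carried no zone code. Their median rise from zone 1 to zone 6 was 1.08, against which Hox4b rose by 22.88 and ranked 8 among the 261. Hox4a, which did not rise in every step, had a zone 6 score that lay 2.54 above its zone 1 score. The distance between the highest and the lowest score was 1.05 in the median transcript. By this distance Hox4b ranked 452 and Hox4a 5252 of 24578. Having the highest score in zone 6 and the lowest in zone 1, as both paralogs did, was seen in 7.56% of transcripts.

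Among the 28 transcripts with the zone code 6.5, Hox4b ranked 4 by its zone 6 score and 9 by its zone 5 score. The zone 6 scores of these transcripts ran from 1.82 to 17.18 with a median of 4.46, and their zone 1 scores from −23.36 to −1.48 with a median of −8.51. Hox4b was among the 6 of them that were called lower in zone 3 after adjustment, where 2.66% of all transcripts were. In zone 5, 3 of the 28 stayed past the adjusted threshold, which 0.0773% of all transcripts passed as higher. Hox4b was not one of the 3. The code 6.5 itself selects for high scores in zones 5 and 6, so these shares do not measure an excess. Of the 80 transcripts that passed the authors' threshold as higher in zone 5, 19 passed the adjusted one. Hox4a ranked 136 by zone 6 score among the 184 transcripts with the code 6, whose median zone 6 score was 2.01. Of these 184, 52 were past the adjusted threshold in zone 6 and Hox4a was not. Over all transcripts 0.321% were called higher in zone 6, and the code 6 itself selects for high scores there.

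**Figure D2:**
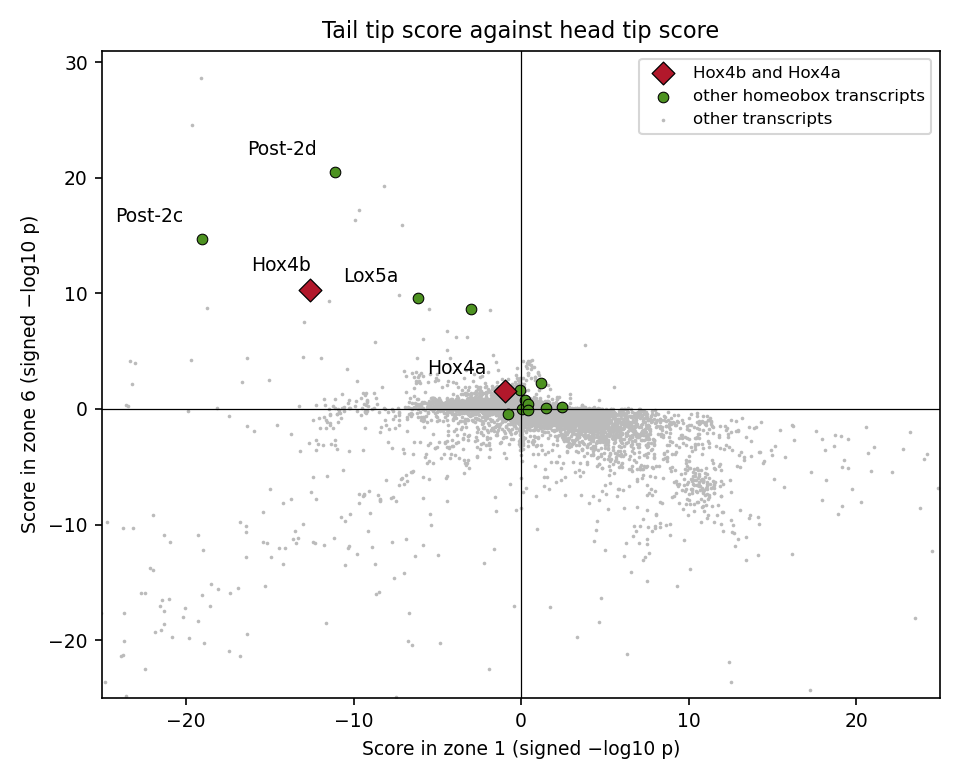
Each point is a transcript, with its deposited score in zone 1 on the x axis and in zone 6 on the y axis (signed −log10 p), the Hox4 paralogs as red diamonds and the other homeobox transcripts in green; 120 transcripts lie outside the plotted range. Hox4b stands at −12.60 and 10.28 beside Post-2c, Post-2d and Lox5a, and Hox4a at −0.95 and 1.59 at the edge of the main cloud.

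The full set of Hox4b calls, lower in zones 1, 2 and 3 and higher in zone 6, was shared by 11 transcripts in all (0.0448%). By zone 6 score Hox4b ranked 9 among them. The sequence table, which names only homeobox genes of the planarian, holds 3 of the other 10. These were Post-2c and Post-2d, posterior genes related to the fly Abdominal-B, and Lox5a, a central HOX gene. The remaining 7 are not named in that table. The zone 5 scores of the 11 were all positive. None was called higher in zone 5 after Benjamini-Hochberg adjustment, where only 0.0773% of all transcripts were.

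Among the homeobox genes, Post-2c was the closest to Hox4b in the shape of its scores. Pearson's r over the 6 zones was 0.998, the second highest of 24577 transcripts. Post-2c had scores of −19.07, −13.76, −5.21, −1.29, 2.55 and 14.71 from zone 1 to zone 6, larger in size than those of Hox4b in every zone. The highest r, also 0.998, belonged to SmedASXL_006502, whose scores ran only from −0.49 in zone 1 to 0.60 in zone 6 and passed no threshold. The measure compares shapes and not sizes. Post-2d had r = 0.94 (rank 222) and Lox5a r = 0.94 (rank 229), followed by the second Lox5a transcript at 0.91 (rank 475). Hox4a came next among the homeobox genes, with r = 0.90 and rank 534. All of these correlations rest on 6 scores that share libraries and are given as descriptions.

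For Hox4a the order was another one. The 2 transcripts with the highest r were SmedASXL_010090 (0.995) and SmedASXL_076302 (0.994), with zone 6 scores of 0.27 and 0.38, far from any threshold. Among the homeobox genes Post-2d came first (r = 0.94, rank 144), then the second Lox5a transcript (r = 0.93, rank 189) and Hox4b (r = 0.90, rank 317). By Euclidean distance, which also counts the size of the scores, Post-2b was the homeobox gene nearest to Hox4a, at 1.06. Among all transcripts it was only at rank 160. Post-2b, a Post-2 paralog, had a zone 6 score of 1.60 beside the 1.59 of Hox4a, and neither was called after adjustment. By the same distance Lox5a was nearest to Hox4b, at 7.10, and Post-2c followed at 9.67. Hox4a lay at 17.29 from Hox4b.

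**Figure D3:**
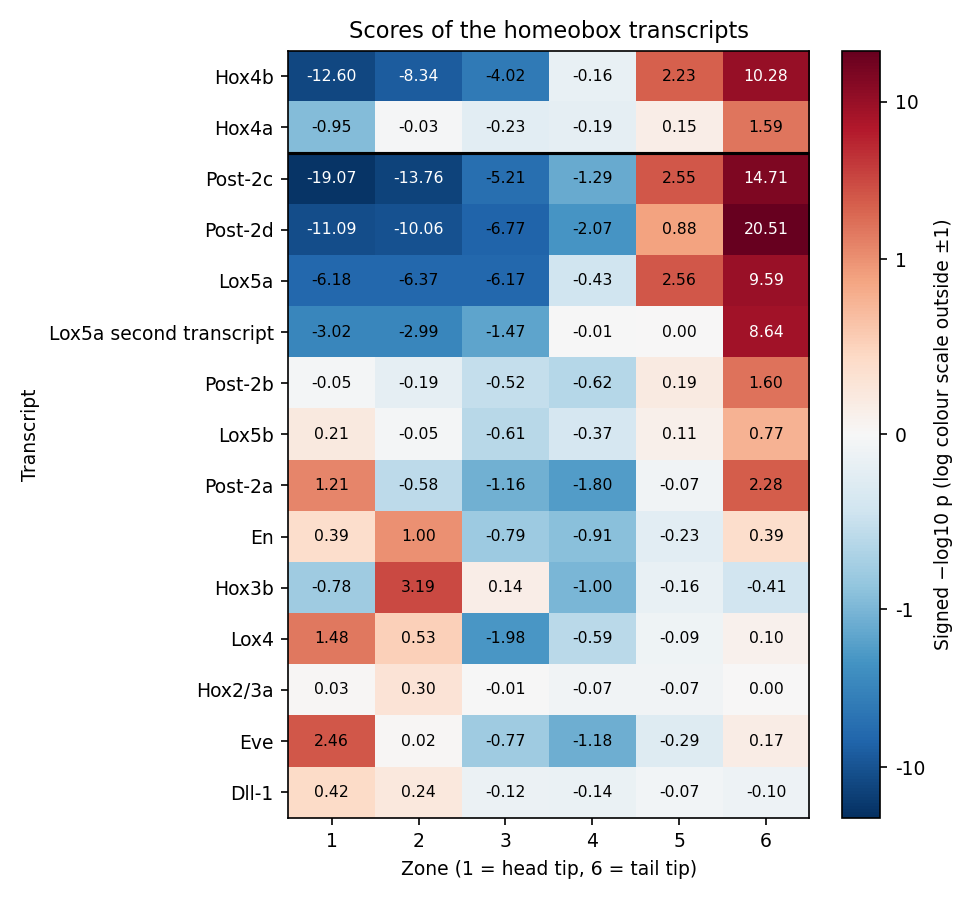
Deposited scores (signed −log10 p, written in the cells) of Hox4b, Hox4a and 13 other homeobox transcripts by zone, from head tip (1) to tail tip (6), with the others ordered by Pearson's r with Hox4b. Blue at the left and red at the right are strong in Hox4b, Post-2c, Post-2d and Lox5a, and faint in Hox4a. The second Lox5a transcript shows them too, with −3.02 in zone 1 and 8.64 in zone 6. Post-2b has −0.05 in zone 1 and 1.60 in zone 6.

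The list of other homeobox genes held 14 genes with 15 transcript identifiers, of which 13 identifiers from 12 genes had a row. It was made up of the remaining HOX genes with En, Eve and Dll-1, homologs of the fly genes engrailed, even-skipped and Distal-less. In zone 6, 4 of these 13 transcripts were called higher and 0 lower, where 0.321% of all transcripts were called higher and 3.53% lower. The 4 were Post-2c, Post-2d and both Lox5a transcripts. In zone 1, 4 of the 13 were called lower, and 1, Eve, was called higher with a score of 2.46, where 6.06% of all transcripts were called lower and 11.3% higher. In zone 2, 4 were called lower and 1, Hox3b, was called higher with a score of 3.19 (1.3% of all transcripts lower and 2.68% higher). In zone 3, 3 were called lower and 0 higher (2.66% of all transcripts lower and 0.745% higher). The calls of Eve (edgeR exact test, Benjamini-Hochberg adjusted p = 0.0241) and Hox3b (0.0173) were lost at an adjusted p of 0.01, as was that of the second Lox5a transcript in zone 2 (0.0268). In zones 4 and 5, 0 of the 13 were called by the edgeR exact test with Benjamini-Hochberg adjustment. At an unadjusted p under 0.05, 2 of them were lower in zone 4 and 2 were higher in zone 5, Post-2c and Lox5a with scores of 2.55 and 2.56, close to the 2.23 of Hox4b. At that unadjusted threshold 5.01% of all transcripts were lower in zone 4 and 0.325% higher in zone 5. Over all transcripts, 1.72% were called higher and 2.57% lower in zone 4 after adjustment, and 0.0773% higher and 2.93% lower in zone 5. The median score of the 13 was 0.77 in zone 6 and 0.03 in zone 1, against medians of −0.0038 in zone 6 and 0 in zone 1 over all transcripts. Of the other anterior-class genes, Hox1 had no row, and Hox3b and Hox2/3a were not called in zone 6, which does not establish a pattern there. Hox3b had −0.41 in zone 6, and Hox2/3a had 0.00 there and no score above 0.30 in size.

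The predicted proteins of the paralogs differed in length and layout. The Hox4b protein had 216 residues with the homeodomain at residues 126 to 185, and the Hox4a protein 351 residues with the homeodomain at 225 to 284. The homeodomain was taken as 60 positions with the tryptophan of its conserved WFQN motif at position 48. Both proteins had the tetrapeptide core of the hexapeptide, a motif in front of the homeodomain with which HOX proteins contact their TALE-class cofactors. It read FPWM from residue 107 in Hox4b and YPWM from residue 155 in Hox4a. The linker between this motif and the homeodomain was 15 residues in Hox4b and 66 in Hox4a. After the homeodomain 31 residues followed in Hox4b and 67 in Hox4a. Among the other homeobox proteins of the table, Lox4 and Lox5b also had a PWM motif ahead of the homeodomain, with linkers of 9 and 11 residues.

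The homeodomains of the paralogs were identical at 45 of 60 positions (75%). Local alignment of the whole proteins covered 59 of these positions and gave 76.3%. The 15 differences, with the Hox4a residue first, then the homeodomain position and the Hox4b residue, were S1Y, N4S, T6Q, T9S, I13T, H21Y, F22Y, K24Q, K29R, Q36N, L38V, Q39C, V45I, W56Y and H60A. Between positions 42 and 58, which hold the DNA-recognition helix, 15 of 17 positions were identical. The dfd homeodomain of the limpet Lottia gigantea, a mollusc, covered 14 of the 15 differing positions. It had the Hox4a residue at 8 of them and the Hox4b residue at 3.

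By this count Hox4a was closer to the limpet Hox4 gene than Hox4b was. Hox4a shared 50 of 59 positions with limpet dfd (84.7%), followed by 48 with scr (81.4%). Hox4b shared 46 of 59 positions with limpet scr (78.0%) and 45 each with dfd and Antp (76.3%). At the 8 positions where limpet dfd and Antp differ, Hox4b had the dfd residue at 2 and the Antp residue at 2, while Hox4a had the dfd residue at 5 and the Antp residue at 0. In the leech Helobdella robusta, the Dfd-A homeodomain shared 44 of 59 positions with Hox4b and 45 with Hox4a. The best match there was lox5 for Hox4b and Scr-A for Hox4a, with 47 positions each. Differences of 1 or 2 positions do not separate classes, and shared positions are not a phylogeny. For Hox4b, a Hox4 homeodomain was first in neither species, and for Hox4a it was first in the limpet but not in the leech.

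Within the planarian, r of the zone scores with Hox4b varied among homeobox genes with close shares of identity to it. Its homeodomain shared the most positions with Lox4 and Lox5b (46 of 60 each, 76.7%), but r of the zone scores was −0.32 with Lox4 and 0.44 with Lox5b. Lox4, Lox5b and Hox4a were called in no zone after adjustment, so any r with them rests on uncalled scores and does not establish a shape. Lox5a, with 1 position fewer (45 of 60, 75%), had r = 0.94 and was the nearest homeobox gene to Hox4b by Euclidean distance. The homeodomain of Post-2c, the gene with r = 0.998, shared 31 of 60 positions with Hox4b (51.7%). For Hox4a, the highest identity was with Lox5a and Lox5b (48 of 60 each, 80%), with r of 0.87 and 0.61. Hox4a and Hox4b themselves combined 75% identity with an r of 0.90.

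**Figure D4:**
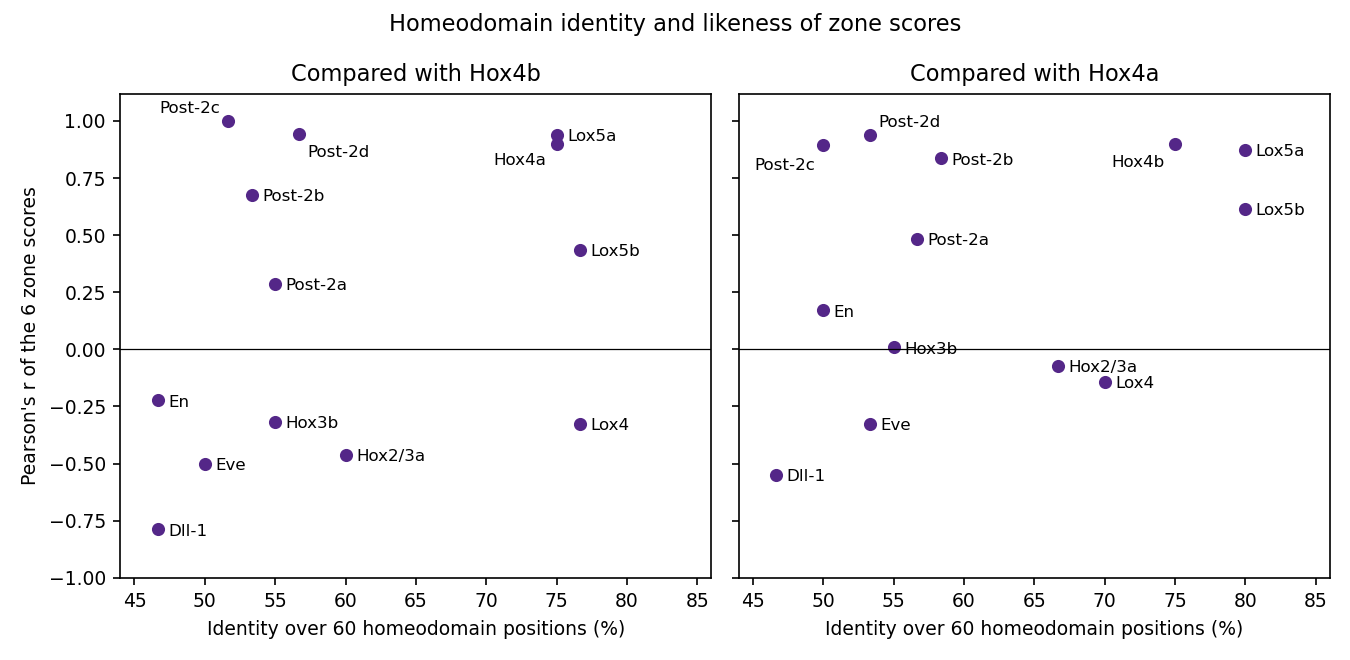
Each point is a planarian homeobox gene, with its identity to the homeodomain of Hox4b (left) or Hox4a (right) over 60 positions on the x axis and Pearson's r of the 6 zone scores on the y axis. For Hox4b, Post-2c has the highest r at 51.7% identity, whereas at 76.7% and 75% identity Lox4 has an r of −0.32 and Lox5a one of 0.94. Lox4 was called in no zone after adjustment, and the points do not mark which genes were called.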

How the data were processed

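The study's methods and labels describe single-end reads of 1 TruSeq library per zone, aligned without trimming by Bowtie2 2.2.4 to the asexual transcriptome. The authors left out transcripts below 0.5 CPM in each of the zones. After TMM normalization, the authors set each zone against the average of the other 5 in the edgeR exact test. Neither the edgeR version that the authors ran nor its dispersion estimate is given in the sources used here. The file deposited by the authors holds the resulting score values (signed −log10 of the unadjusted p-value) and a zone code made from them. It is their own comparison in this form, so a p-value describes these 6 libraries and no animals.

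From the scores, p-values were read back by raising 10 to the negative of the score's size and adjusted by the Benjamini-Hochberg method over all transcripts within each zone. Ranks, steps, Pearson's r and distances are descriptions without a test. Predicted proteins of the study's sequence table were compared with Biopython 1.88 (BLOSUM62, gap penalties 11 and 1) and by position in the homeodomain. Named genes were the paralogs, the other homeobox genes of the table and the 2 transcripts with the highest r for each paralog. The neural and stem cell markers planned as a check were not read, because no source pairs them with identifiers. The members and lists were chosen with earlier results of these data known. Calling and ordering steps were run on simulated data with large planted differences and independent zones. That run checked the code and says nothing about these scores, which share libraries. Python 3.11.15, numpy 2.4.6, pandas 2.3.3, scipy 1.17.1 and matplotlib 3.10.9 were used.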

Additional observations from a re-analysis of the deposited data

How the results depend on the processing

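Of the 12 zone calls of the paralogs, 4 were made with Benjamini-Hochberg adjustment of the edgeR exact test within each zone. Under 6 alternatives (72 values), 69 stayed on their side of the threshold. With unadjusted p-values Hox4b in zone 5 (0.00594) and Hox4a in zone 6 (0.026) also passed, and with Bonferroni adjustment over all transcripts Hox4b in zone 3 did not (1). The calls of Hox4b in zones 1, 2 and 6 held under all 6. Of the 13 other homeobox transcripts, 6 were called in 1 zone or more, both Lox5a transcripts among them, and between 4 and 9 under the alternatives. The share of all transcripts called in 1 zone or more was not computed. In zone 1 alone 11.3% were called higher and 6.06% lower, so these counts are not read as an excess. The call of Eve was lost under 4 of them and that of Hox3b under 3. Spearman's rho of Hox4a with zone number ranged from 0.70 to 1 when 1 zone was left out, and was 0.40 without zones 1 and 6. The likeness of the paralogs was 0.83 by Spearman's rho and 0.91 on a square-root scale. Among the transcripts most like Hox4b, Hox4a ranked 1551 by Spearman's rho and 1049 by Euclidean distance, and Post-2c ranked 15 by distance. By Spearman's rho Post-2c ranked 1, tied with 259 other transcripts whose scores also rise in every step. Among those most like Hox4a, Hox4b ranked 204 on the square-root scale and 24004 by Euclidean distance. Identity of the homeodomains was 75% with a global alignment, with other gap penalties and in the window with no gaps, the last chosen after seeing the data. No paired analysis was possible because there was 1 library per zone. For the same reason no replicate could be left out. The study reports CPM values per zone, but abundance, on which a score depends, was not analysed here.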
